A study of Rattus norvegicus with 2 samples.

Results

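The platelet-derived growth factor (PDGF) genes of the rat, 4 ligand genes (*Pdgfa*, *Pdgfb*, *Pdgfc* and *Pdgfd*) and 2 receptor genes (*Pdgfra* and *Pdgfrb*), were followed in single-cell RNA sequencing of neonatal heart cells. The 6 genes were taken by symbol from the 25399 gene identifiers of the count tables, and all 6 were found. Hearts of Sprague-Dawley rats 1 to 3 days old, male and female pooled, were digested with trypsin, and the cells were enriched on a Percoll gradient for intrinsic cardiac adrenergic (ICA) cells, a catecholamine-making cell type of the heart. The cells were then plated, cultured and kept for 2 h with saline (the control library) or with 1 µg/mL lipopolysaccharide (the LPS library). Lipopolysaccharide is a bacterial wall component that is sensed by Toll-like receptor 4. After treatment the cultured cells were digested again, with trypsin and EDTA. Each condition was 1 library made with the 10X Genomics 3′ v2 kit from pooled animals with no allele or transgene named, so there were no replicates, no test could be made, and any difference in the handling of the libraries is part of every difference below.

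PDGFs are secreted dimers that bring receptor tyrosine kinases together on the surface of mesenchymal cells. The A and B chains are cut to their active form inside the cell, while the C and D chains leave it with a CUB domain that extracellular proteases must remove. The α receptor, from *Pdgfra*, binds A, B and C chains and marks fibroblasts of the heart, and the β receptor, from *Pdgfrb*, binds B and D chains and is carried by pericytes. In growing vessels PDGF-B from the endothelium draws in pericytes through the β receptor.

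The control library held 11531 cells and 152624585 unique molecular identifiers (UMIs, counts of captured transcripts), and the LPS library 12689 cells and 127580475 UMIs. A gene's level in a cluster and library is the sum of its UMIs there, scaled to 1000000 UMIs of the same cells (CPM). Since 3′ UMIs count transcript ends, no scaling by length was made, and levels of different genes also carry any difference in their capture. Intervals are at 95% and cover counting error only. They are exact, except for the change in the ratio of the receptor genes to each other, where they are approximate. Barcodes seen in both libraries numbered 194, of which 76 had the same cluster in both, and each ratio without them is part of the alternatives. The cells carry the authors' 11 clusters, numbered 0 to 10. Clusters 0, 1 and 7 were named fibroblast by the authors, 4 and 5 endothelial, 6 macrophages, 3 ICA and cardiomyocyte, while 2, 8, 9 and 10 were left uncommented. Marker genes went with the names that were given, with a limit in cluster 6. Its macrophage markers summed to 1767 CPM in control, but its 4 megakaryocyte and platelet markers to 3001 CPM. In cluster 0 these sums were 13.4 and 13.5 CPM. Whether cluster 6 also holds platelet material was not tested. *Cdh5*, an endothelial cadherin, stood at 461 and 228 CPM in clusters 4 and 5 of the control library and at 14.0 CPM in cluster 0. Cluster 2 was pericyte-like, with *Kcnj8*, a potassium channel subunit of pericytes, at 296 CPM, *Abcc9* at 304 CPM, *Rgs5* at 93.6 CPM and *Higd1b* at 58.9 CPM in the control library, against 12.1, 14.1, 2.71 and 3.61 CPM in cluster 0. All 7 listed pericyte markers summed to 869 CPM in cluster 2 in control, against 48.2, 275 and 315 CPM in clusters 0, 3 and 4. Even so, 1 or more of them stood above the cluster 2 level in clusters 3, 4, 5 and 9. Cluster 2 also led the 5 smooth muscle markers, whose sum was 2430 CPM against 716 CPM in cluster 0, mostly *Acta2* and *Tagln*. Cluster 8 was mesothelial-like, with *Msln*, the gene of mesothelin, at 431 CPM, and the 42 cells of cluster 10 were Schwann-like, with *Sox10*, a neural crest transcription factor, at 229 CPM. Cluster 9, at 22.7% mitochondrial UMIs in the control library, stays unnamed. Among transcripts, the ICA label rests in cluster 3 on *Dbh* at 25.4 CPM and *Ddc* at 49.6 CPM in the control library, for *Th*, the first enzyme of catecholamine synthesis, was at 0 UMIs in that cluster in both libraries. The paper also identifies ICA cells by staining of the *Th* protein. It reports that Percoll-enriched cells were stained for ICA cells before they were sequenced.

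The 250 bases before the RefSeq start were read for the 5 members that the promoter table holds, which are all but *Pdgfrb*. The sequences of *Pdgfa* and *Pdgfra* are shown as the members with the largest ratios of LPS to control, and that of *Pdgfb* as a ligand gene with nearly the same level in both libraries in its main cluster. They run 5′ to 3′ on the gene's own strand, and capitals mark the motifs that were searched for on both strands: GGGCGG (a GC box), TGANTCA (an AP-1 motif), TATAAA and the kappaB motif.
Pdgfa, GRCr8 chr12:20759116-20759365, plus strand: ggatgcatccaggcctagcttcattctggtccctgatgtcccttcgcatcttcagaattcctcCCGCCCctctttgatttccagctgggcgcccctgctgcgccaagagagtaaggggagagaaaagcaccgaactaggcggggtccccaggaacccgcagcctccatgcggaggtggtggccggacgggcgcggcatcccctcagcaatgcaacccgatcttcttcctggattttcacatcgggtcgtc
Pdgfra, GRCr8 chr14:33408517-33408766, minus strand: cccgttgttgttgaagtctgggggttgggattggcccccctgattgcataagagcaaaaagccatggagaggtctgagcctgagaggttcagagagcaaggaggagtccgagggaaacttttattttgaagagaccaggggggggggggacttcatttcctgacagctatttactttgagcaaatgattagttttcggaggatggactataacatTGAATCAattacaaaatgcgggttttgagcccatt
Pdgfb, GRCr8 chr7:113438344-113438593, minus strand: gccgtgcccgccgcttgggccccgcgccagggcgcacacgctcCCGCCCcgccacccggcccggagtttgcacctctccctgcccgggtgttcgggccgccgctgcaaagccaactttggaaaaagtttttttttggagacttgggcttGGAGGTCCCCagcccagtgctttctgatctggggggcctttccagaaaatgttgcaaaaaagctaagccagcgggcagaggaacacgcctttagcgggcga
*Pdgfa* held a GC box that begins 187 bases before the start, *Pdgfra* an AP-1 match at 35 bases, and *Pdgfb* a kappaB match at 101 bases and a GC box at 207 bases. *Pdgfd* held a GC box at 114 bases, and *Pdgfc* none of the motifs. Of 33469 promoters of the same length, 30.5% held a GC box, 12.9% TATAAA, 6.34% the AP-1 motif and 4.24% the kappaB motif. The *Pdgfra* window had 47.2% G or C, against 60.8% in *Pdgfa* and 63.6% in *Pdgfb*. These matches describe the letters only, and the deposited counts do not bear on which of them is used.

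The family divided by cell type in the control library. *Pdgfra* was at 108 CPM (106 to 110) in the fibroblasts of cluster 0 and at 27.5 CPM (24.3 to 31.1) in the pericyte-like cluster 2, while *Pdgfrb* was at 194 CPM (192 to 197) in cluster 0 and highest, at 504 CPM (490 to 518), in cluster 2. The unnamed cluster 9, of 66 cells, had the highest *Pdgfra* level, 198 CPM (159 to 243), and *Pdgfrb* at 333 CPM (282 to 391). Its summed fibroblast and cardiomyocyte markers were 17475 and 1447 CPM, beside 11891 and 177 CPM in cluster 0. *Pdgfb* lay mostly in the endothelial cluster 4, which held 71.4% of its UMIs in the control library. *Pdgfa* was spread wider, with 113 CPM (103 to 123) in the endothelial cluster 5, 86.2 CPM (80.3 to 92.3) in cluster 2 and 37.4 CPM (33.9 to 41.2) in cluster 4. *Pdgfc* and *Pdgfd*, the ligands that need extracellular cutting, were scarce everywhere, with 216 and 437 UMIs in the whole control library against 13722 of *Pdgfra* and 29928 of *Pdgfrb*.

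**Figure D1:**
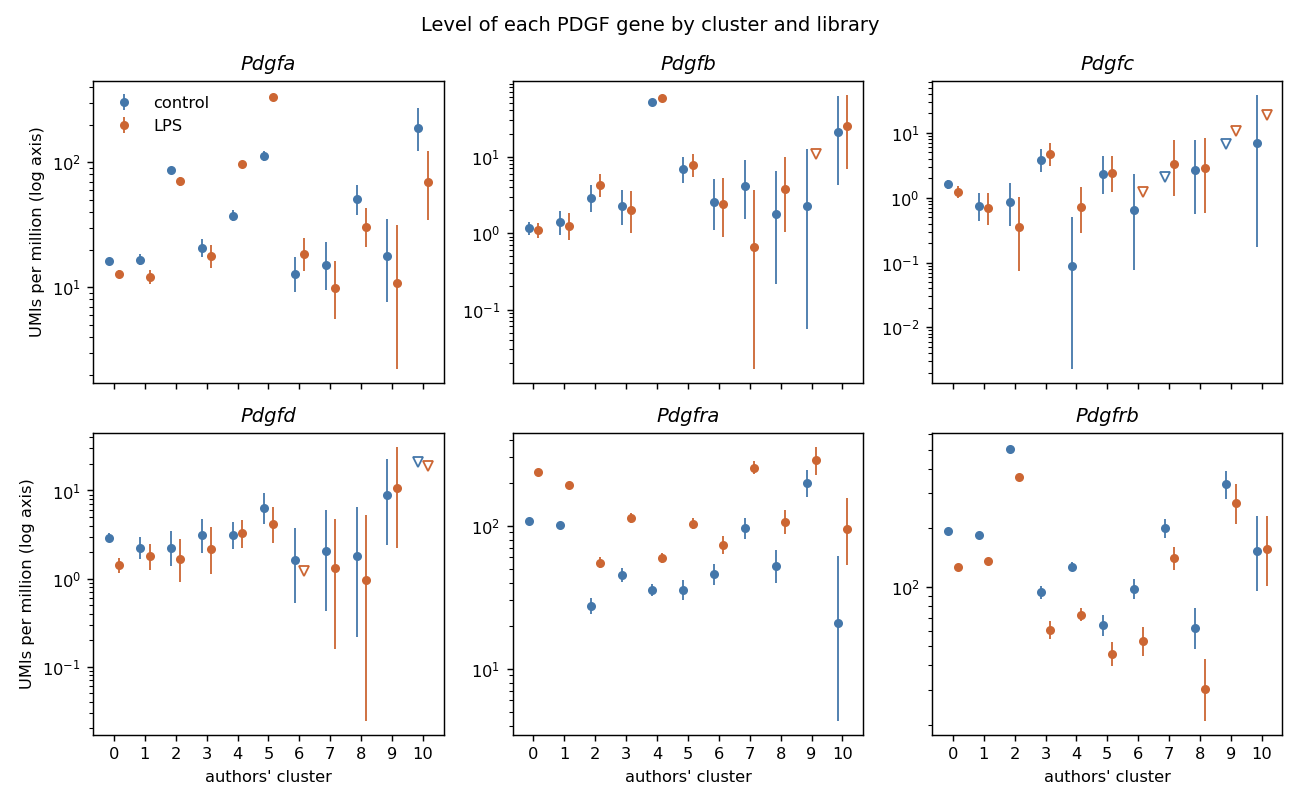
Level of each PDGF gene in UMIs per 1000000 (log axis) in the authors' clusters 0 to 10, for the control (blue) and LPS (orange) libraries. Points are levels, bars exact Poisson intervals at 95%, and open triangles mark the level of 3 UMIs where none was counted. The *Pdgfra* panel shows LPS above control and the *Pdgfrb* panel the reverse in clusters 0 to 9, while *Pdgfa* is above control with LPS in clusters 4, 5 and 6 only.

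With LPS, the 2 receptor genes differed from control in opposite directions. *Pdgfra* was higher in the LPS library in 10 of 10 clusters in which it had at least 50 UMIs, with every interval above 1, and *Pdgfrb* was lower in 10 of 10, with 9 intervals below 1. These clusters share the free RNA of their library and are not independent observations. In clusters 2, 3, 4, 6 and 8 with LPS the *Pdgfra* level, as a share of that of cluster 0, lay within the range of the fibroblast markers. Past 1.5-fold, the size used here to call a gene higher or lower, were 9 of the *Pdgfra* ratios and 5 of the *Pdgfrb* ratios. Scaled to the median gene of the cluster, *Pdgfrb* was no longer past 1.5-fold in cluster 0 (log2 ratio -0.49) and cluster 6 (-0.58). This leaves 3 such ratios, those of clusters 3, 4 and 8. There, *Pdgfrb* as a share of its cluster 2 level lay within the range of the pericyte markers in both libraries. In control that range was 2.72% to 176% in cluster 3 and 8.64% to 190% in cluster 4, too wide to decide anything there. The part of free RNA in these 3 ratios was not tested, and they are not read as changes of those cells. In cluster 0, 1 of the 6 members was called higher and 2 lower, where 6.88% of the 12247 measured genes (at least 50 UMIs over both libraries) were called higher and 19.7% lower. In cluster 1 the count was 1 higher and 0 lower of 5 members, beside 6.42% and 13.1% of all genes, and in cluster 2 it was 1 and 0 of 4, beside 5.78% and 13.3%. Cluster 3 had 1 higher and 1 lower of 4 members, beside 4.36% and 5.26%, and cluster 4 had 2 higher and 1 lower of 5, beside 5.58% and 13.1%. Cluster 5 had 2 higher and 0 lower of 4, beside 9.5% and 13%, and cluster 6 had 1 and 1 of 3, beside 8.79% and 30.3%. In clusters 7, 8 and 9 the counts were 1 and 0 of 2, 1 and 2 of 3, and 0 and 0 of 2, beside 10.4% and 11.6%, 6.91% and 6.78%, and 8.24% and 8.48%. Calls of lower level were thus common among all genes in several clusters, and the *Pdgfrb* calls of clusters 0 and 6 were made where 19.7% and 30.3% of genes were called lower. No member reached 50 UMIs in cluster 10, where 10.7% of genes were called higher and 6.67% lower. The median log2 ratio of all genes was -0.13 in cluster 0, -0.12 in cluster 2 and -0.30 in cluster 6.

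*Pdgfra* in cluster 0 stood at 108 CPM in control (9755 UMIs) and 236 CPM with LPS (17389 UMIs), a ratio of 2.19 (2.13 to 2.24). It was above 97.1% of the measured genes of that cluster by log2 ratio. In the cycling fibroblasts of cluster 1 it stood at 100.3 and 193 CPM (ratio 1.93, 1.83 to 2.03), a smaller ratio whose interval does not overlap that of cluster 0. In cluster 7, a fibroblast cluster led by interferon-response genes, it stood at 96.6 and 255 CPM (2.64, 2.17 to 3.22). In the mesothelial-like cluster 8 the levels were 52.2 and 107 CPM (2.04, 1.48 to 2.86). The pericyte-like cluster 2 had 27.5 and 55.2 CPM (2.01, 1.72 to 2.34), the lowest *Pdgfra* level of the LPS library, with an interval that overlaps that of cluster 4. As a share of the cluster 0 level, *Pdgfra* was at 25.6% and 23.4% in cluster 2, within the fibroblast markers' 24.1% to 76.9% and 19.0% to 77.7%, and at 48.4% and 45.2% in cluster 8, within their 19.7% to 56.4% and 14.7% to 56.8%. The ratios of these clusters are not read as changes of their own cells. In the LPS library clusters 9, 7 and 0 led, at 286, 255 and 236 CPM, and their intervals overlapped.

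After each cell was thinned to 3000 UMIs, *Pdgfra* had a UMI in 27.2% (26.2 to 28.3) of control and 48.5% (47.4 to 49.7) of LPS cells of cluster 0. At full depth (medians of 12968 and 9822 UMIs per cell) the same shares came to 68.9% and 84.6%. Cells with 2 or more thinned *Pdgfra* UMIs made up 5.33% of control and 16.4% of LPS cells of the cluster. Macrophages, which are not known for this receptor, gave 9.25% and 12.8% with a thinned *Pdgfra* UMI in cluster 6 (median full depths of 8846 and 6900 UMIs), so the shares in cluster 0 lay well above that level.

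*Pdgfrb* in cluster 2 stood at 504 CPM in control (4719 UMIs) and 365 CPM with LPS (3063 UMIs), a ratio of 0.724 (0.691 to 0.758). In cluster 0 the levels were 194 and 126 CPM (0.649, 0.633 to 0.666), with 18.3% of the measured genes at a lower log2 ratio. As a share of the cluster 2 level, *Pdgfrb* in cluster 0 was at 38.6% in control, above the pericyte markers' 2.89% to 23.5%. With LPS it was at 34.6%, within their 2.33% to 37.0%. The part of free RNA in the cluster 0 ratio was not tested. The smallest ratios were 0.491 (0.312 to 0.757) in cluster 8, on 69 and 32 UMIs, and 0.540 (0.437 to 0.665) in the macrophage cluster 6. As a share of the cluster 2 level, *Pdgfrb* was at 12.3% and 8.36% in cluster 8 and at 19.5% and 14.6% in cluster 6, within the range of the pericyte markers in both libraries, and these ratios are not read as changes of those cells. Cluster 9 had 333 and 268 CPM (0.805, 0.601 to 1.07), an interval that includes 1. Cluster 2 kept the highest *Pdgfrb* level in both libraries. The thinned share of cells with a *Pdgfrb* UMI was 74.5% (71.9 to 77.0) in control and 65.0% (62.4 to 67.5) with LPS in cluster 2, and 42.5% and 30.1% in cluster 0. At full depth (medians of 6854 and 5082 UMIs in cluster 2) they came to 94.0% and 82.1% in cluster 2 and 86.3% and 65.1% in cluster 0. Macrophages gave thinned shares of 20.3% and 8.97%. Cells with 3 or more thinned *Pdgfrb* UMIs made up 25.1% of cluster 2 in control and 12.1% with LPS.

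**Figure D2:**
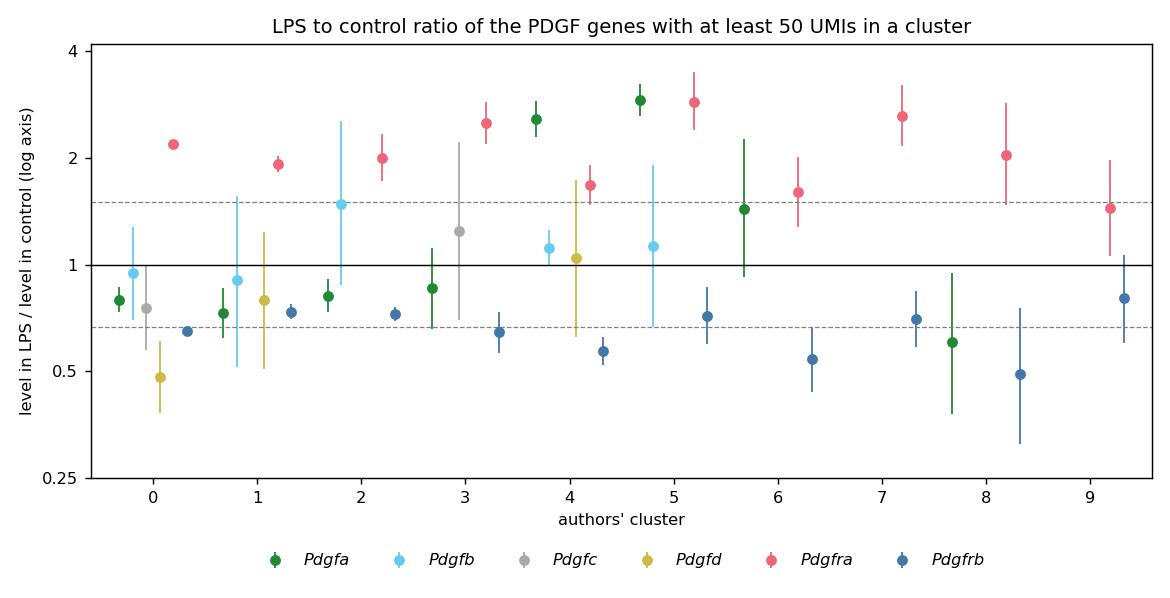
Ratio of the LPS level to the control level (log axis) for each PDGF gene with at least 50 UMIs over both libraries in a cluster, for clusters 0 to 9. Bars are exact conditional intervals at 95%, the solid line is a ratio of 1 and the dashed lines are 1.5-fold. All *Pdgfra* points lie above 1 and all *Pdgfrb* points below it, and *Pdgfa* reaches 2.57 and 2.92 in clusters 4 and 5.

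The ratio of the receptor genes to each other does not depend on the total of a cluster. In cluster 0 there were 0.555 *Pdgfra* UMIs per *Pdgfrb* UMI in control and 1.87 with LPS, a change of 3.37 times (3.25 to 3.49). In cluster 2 the ratio was 0.0547 in control and 0.151 with LPS (2.77 times, 2.36 to 3.25), so *Pdgfrb* stayed the more abundant receptor transcript there. The *Pdgfra* level of cluster 2 lay within the fibroblast markers' range in both libraries. This change is therefore not read as one of the cluster's own cells. Over all cells the ratio was 0.459 and 1.44 (3.14 times, 3.05 to 3.23). Cluster 9 had the smallest change, 1.80 times (1.19 to 2.71). In the fibroblast clusters 0, 1 and 7 the receptor with more UMIs was *Pdgfrb* in control and *Pdgfra* with LPS. The same held in clusters 3, 5, 6, 8 and 9, so it was not particular to fibroblasts. The changes in clusters 3, 5 and 6 were 3.89, 4.02 and 2.97 times. In clusters 2, 4 and 10 the receptor with more UMIs was *Pdgfrb* in both libraries. The part of free RNA in these changes was not tested.

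Within single cells of cluster 0, thinned to 3000 UMIs, both receptors had a UMI in 799 of 6600 control cells (12.1%, 11.3 to 12.9) and in 1058 of 7024 LPS cells (15.1%, 14.2 to 15.9). The product of the single shares was 11.6% and 14.6%. Cells with *Pdgfra* alone numbered 999 in control and 2351 with LPS, and cells with *Pdgfrb* alone 2004 and 1056. Without thinning, both were seen in 60.2% of control and 56.3% of LPS cells of cluster 0, the opposite order, so no order is read from these shares. In cluster 2 the thinned share with both was 5.98% (4.70 to 7.48) and 7.46% (6.14 to 8.97), intervals that overlap.

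**Figure D3:**
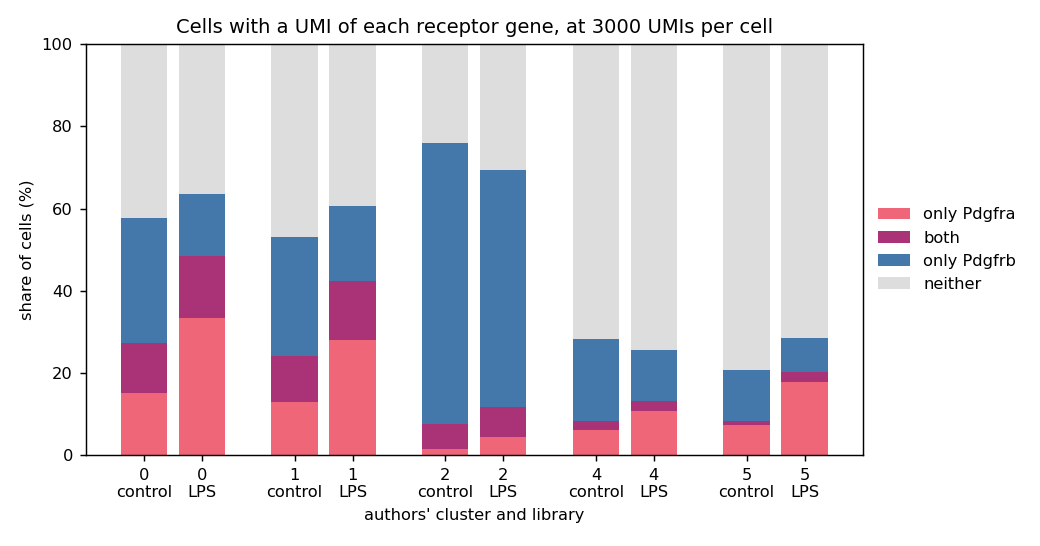
Share of cells (%) with a UMI of *Pdgfra* alone, of both receptor genes, of *Pdgfrb* alone or of neither, after thinning to 3000 UMIs per cell, in clusters 0, 1, 2, 4 and 5 of each library. In cluster 0 the share with *Pdgfra* alone is 15.1% in control and 33.5% with LPS, and that with *Pdgfrb* alone 30.4% and 15.0%.

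Free RNA in the droplets gives UMIs in cells that do not express a gene, so the levels of *Pdgfra*, *Pdgfrb*, *Pdgfa* and *Pdgfb* were set beside the marker genes of a reference cluster, 0, 2, 5 and 4 in turn, and *Pdgfc* and *Pdgfd* were not. The small clusters 9 and 10 were not used as references, although cluster 9 stood above the reference for *Pdgfra* and cluster 10, in control, for *Pdgfa*. *Pdgfra* in the endothelial cluster 4 was 32.9% (29.7 to 36.4) of its cluster 0 level in control, where the 8 fibroblast markers lay between 19.0% and 33.2% of theirs, and with LPS it was 25.2%, within the markers' 16.7% to 30.8%. In macrophages it was 42.6% (35.9 to 50.2) in control, beside 28.0% to 39.6%, and 31.2% with LPS, beside 22.7% to 35.8%. The macrophage level in control lay above the markers, with an interval that reached into their range. *Pdgfra* in clusters 4 and 6 is not read as expression, and neither is its higher level there with LPS. In cluster 5 it was 33.2% (28.1 to 39.0) in control, beside markers at 21.3% to 31.8%, and 43.8% (39.9 to 48.0) with LPS, above the markers' 17.0% to 32.9%. The summed fibroblast markers in cluster 5 were 3133 CPM in control and 2141 CPM with LPS, with all 8 markers seen in both, while *Pdgfra* there was at 35.8 and 103 CPM (ratio 2.89, 2.40 to 3.49). The part of free RNA or of mixed droplets in that difference was not tested. In cluster 0 itself the summed fibroblast markers were 11891 and 10695 CPM, with *Tcf21*, a transcription factor of cardiac fibroblasts, at 103 and 47.8 CPM. *Pdgfrb* in cluster 0 was 38.6% (37.4 to 39.8) of its cluster 2 level in control, above the 2.89% to 23.5% of the 7 pericyte markers, and 34.6% with LPS, within their 2.33% to 37.0%. The pericyte markers are a mixed yardstick, since 1 or more of them exceeded the cluster 2 level in clusters 3, 4 and 9 in both libraries.

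**Figure D4:**
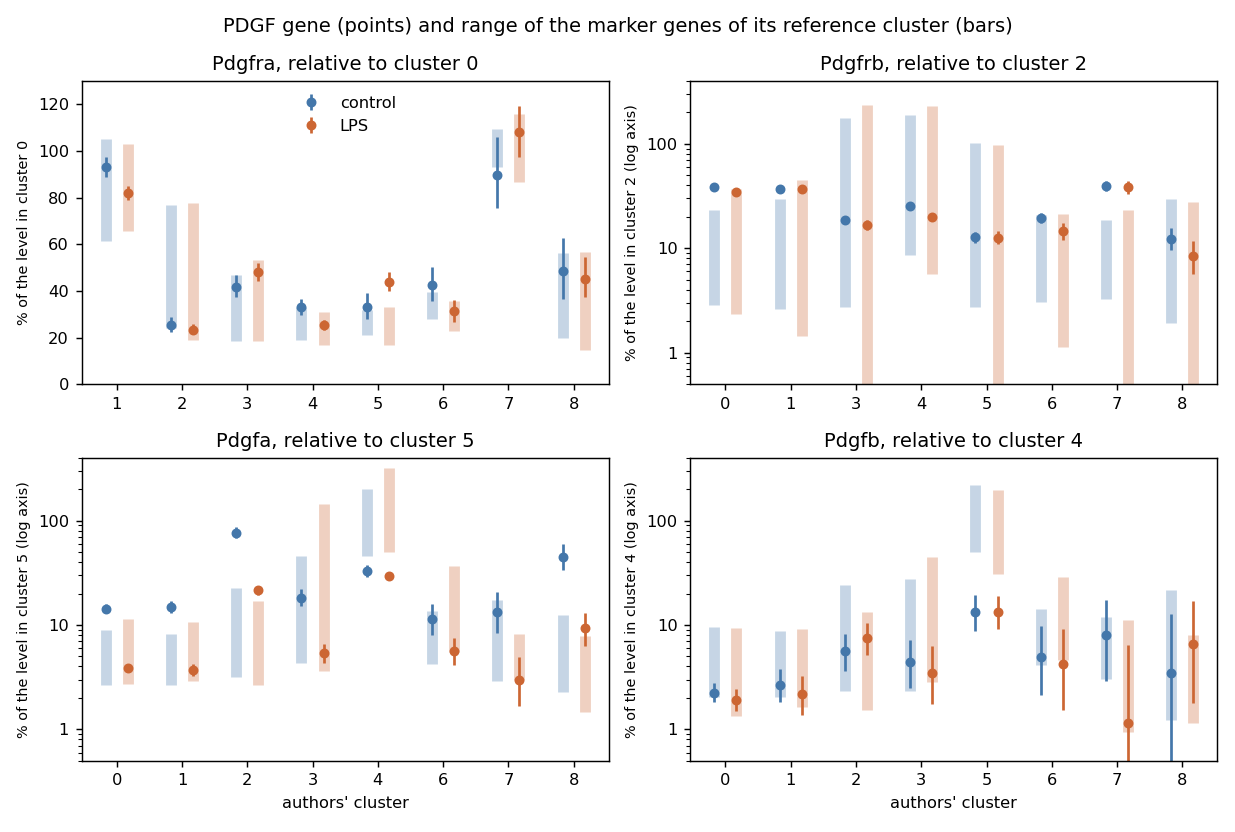
Level of 4 PDGF genes as a percent of the level in the reference cluster named in each panel (points, with intervals at 95%), for clusters 0 to 8 of the control (blue) and LPS (orange) libraries. Pale bars span the same percent for the marker genes of the reference cluster's cell type, and a bar or interval that meets the lower edge goes below it. *Pdgfra* lies above its bar with LPS in cluster 5, and *Pdgfa* lies above its bars in cluster 2 in both libraries.

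Among the ligands, *Pdgfa* had ratios above 1 in the endothelial clusters and below 1 in several others, a contrast between clusters of the same libraries that was not tested. In cluster 5, endothelial cells led by *Selp* and *Plvap*, it was at 113 CPM in control (479 UMIs) and 329 CPM with LPS (1498 UMIs), a ratio of 2.92 (2.63 to 3.24). In cluster 4, endothelial cells led by *Fabp4*, *Apln* and *Cldn5*, it was at 37.4 and 96.2 CPM (2.57, 2.29 to 2.89). By log2 ratio it stood above 97.9% and 98.2% of the measured genes of those clusters. The thinned share of cells with a *Pdgfa* UMI was 30.6% (25.8 to 35.7) in control and 58.9% (54.2 to 63.6) with LPS in cluster 5, and 11.2% and 23.1% in cluster 4. Unthinned, it was 61.7% and 85.6% in cluster 5, whose median depths were 10172 and 8998 UMIs. Macrophages gave thinned shares of 1.78% and 3.10%. Cells with 2 or more thinned *Pdgfa* UMIs made up 6.86% of cluster 5 in control and 28.2% with LPS.

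Outside the endothelium the *Pdgfa* ratios were mostly below 1, and of those with at least 50 UMIs only that of cluster 8 was past 1.5-fold. Cluster 2 had 86.2 CPM in control (807 UMIs) and 70.4 CPM with LPS (591 UMIs), a ratio of 0.817 (0.733 to 0.909). Cluster 0 had 16.1 and 12.8 CPM (0.797, 0.733 to 0.865), cluster 1 had 16.6 and 12.2 CPM (0.732, 0.622 to 0.861) and cluster 8 had 50.4 and 30.5 CPM (0.605, 0.379 to 0.95) on 56 and 32 UMIs. In clusters 0, 1 and 2, 33.0%, 18.3% and 31.2% of all measured genes had a lower log2 ratio, so *Pdgfa* lay within the bulk of genes there. The ratios of clusters 3 and 6, 0.858 (0.657 to 1.12) and 1.44 (0.923 to 2.26), had intervals that include 1. The Schwann-like cluster 10 held 27 UMIs in 16 control cells and 11 in 26 LPS cells, 188 CPM (124 to 273) and 69.0 CPM (34.4 to 123), the highest *Pdgfa* level of the control library on few cells. In cluster 2 the level was 76.4% (68.2 to 85.8) of that of cluster 5 in control, where the 7 endothelial markers were at 3.19% to 22.8%. In cluster 0 it was 14.3% in control, above the markers' 2.66% to 8.92%, and 3.90% with LPS, within their 2.71% to 11.5%. The cluster 5 level behind these percents was itself higher with LPS, at 113 CPM in control and 329 CPM with LPS. Clusters 4 and 5 moved from 10.8% and 12.4% of all *Pdgfa* UMIs in control to 21.2% and 33.9% with LPS, and the level over all cells was 25.3 and 34.7 CPM (1.37, 1.31 to 1.43). These shares and the level over all cells also follow the size of each cluster in its library. Cluster 5 held 350 cells and 4249533 UMIs in control, and 443 cells and 4550936 UMIs with LPS. The part of cluster size in these values was not tested.

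*Pdgfb* was nearly alike in the libraries. In cluster 4 it was at 51.6 CPM in control (574 UMIs) and 57.4 CPM with LPS (559 UMIs), a ratio of 1.11 (0.989 to 1.25), so a change of more than 1.25-fold in that cluster lies outside the counting interval. Cluster 5, the other endothelial cluster, was at 6.82 and 7.69 CPM (1.13, 0.669 to 1.91), which was 13.2% and 13.4% of the cluster 4 level although the endothelial markers there were at 49.6% to 219% in control and 31.1% to 198% with LPS. *Pdgfa* and *Pdgfb* therefore had different leading endothelial clusters. In cluster 0 *Pdgfb* was 2.25% of its cluster 4 level in control, within the endothelial markers' 2.04% to 9.63%, and is not read as expression there. Thinned cells of cluster 4 with UMIs of both *Pdgfa* and *Pdgfb* numbered 12 of 723 in control (1.66%, 0.860 to 2.88) and 24 of 796 with LPS (3.02%, 1.94 to 4.45).

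The CUB-domain ligands gave few UMIs. *Pdgfd* in cluster 0 was at 2.92 CPM in control (264 UMIs) and 1.41 CPM with LPS (104 UMIs), a ratio of 0.483 (0.381 to 0.609), and 8.15% of the measured genes of the cluster had a lower log2 ratio. Its level was 6.35 CPM (4.19 to 9.24) in cluster 5 in control and 4.17 CPM (2.51 to 6.52) with LPS, on 27 and 19 UMIs. In cluster 4 its ratio was 1.04 (0.626 to 1.74). Its control level was 2.25, 2.24, 3.11 and 3.15 CPM in clusters 1, 2, 3 and 4, near that of cluster 0. Since *Pdgfd* was not set beside markers, its cluster 0 ratio is not read as a change of fibroblasts. *Pdgfc* in cluster 0 was at 1.61 and 1.22 CPM (0.756, 0.575 to 0.990), on 146 and 90 UMIs, and in cluster 3 at 3.81 and 4.74 CPM (1.24, 0.697 to 2.21). In macrophages *Pdgfd* had 5 UMIs in control and none with LPS, where 3 UMIs would be 1.21 CPM.

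Ligand and receptor transcripts were also counted in the same cells at 3000 UMIs. In cluster 2 *Pdgfa* and *Pdgfrb* were found together in 16.2% (14.1 to 18.4) of control and 12.3% (10.7 to 14.2) of LPS cells, beside products of the single shares of 16.7% and 12.4%. In cluster 5 *Pdgfa* and *Pdgfra* were found together in 3.14% (1.58 to 5.55) and 12.2% (9.24 to 15.6), beside products of 2.53% and 11.9%. *Pdgfb* and *Pdgfrb* were found together in 2.63% and 2.64% of cluster 4 cells, beside 2.85% and 2.07%. The interval of each of these shares held its product.

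The study is about ICA cells, which the authors' cell table places in cluster 3 and which were looked for here as the cells of that cluster with a *Dbh* UMI, 156 in control and 121 with LPS. The *Dbh* level was 0.552 CPM in cluster 0 and 25.4 CPM in cluster 3 in control. A single UMI can be free RNA and a cell without one can express the gene, so the cells with a *Dbh* UMI are not the study's own ICA sub-cluster, which was not used here. *Pdgfra* was at 54.7 CPM (43.4 to 68.1) in control and 130 CPM (105 to 159) with LPS in these cells, beside 42.6 CPM (37.3 to 48.3) and 111 CPM (101 to 120) in the other cells of the cluster. *Pdgfrb* was at 115 CPM (98.2 to 134) and 70.5 CPM (52.5 to 92.7), beside 88.8 and 59.3 CPM, and *Pdgfa* at 20.5 and 18.0 CPM, beside 20.7 and 17.7 CPM. In both sets of cells *Pdgfra* was higher and *Pdgfrb* lower with LPS. In the whole of cluster 3 *Pdgfra* was 41.8% of its cluster 0 level in control, beside fibroblast markers at 18.6% to 46.8%, and the part of free RNA in these levels was not tested. *Pdgfa*, *Pdgfb*, *Pdgfc* and *Pdgfd* in *Dbh* cells rested on 30, 4, 5 and 6 UMIs in control.

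Genes that process or bind PDGF (10 listed) were mostly within 1.5-fold. In cluster 0, 0 of the 9 measured were called higher and 1 lower, with a median log2 ratio of -0.14 beside -0.13 over all genes, of which 6.88% were called higher and 19.7% lower. The gene called lower was *Thbs1*, a matrix protein that binds growth factors, at a ratio of 0.502 (0.424 to 0.593), and it was also lower in cluster 2 (0.430, 0.265 to 0.679), cluster 4 (0.417, 0.258 to 0.656) and cluster 5 (0.429, 0.227 to 0.781). *Nrp1*, a co-receptor of several growth factors, was lower in cluster 2 (0.636, 0.461 to 0.870) and cluster 5 (0.501, 0.405 to 0.618). *Pcsk5*, a proprotein convertase, was higher in cluster 5 (1.87, 1.38 to 2.56). The counts were 0 higher and 2 lower of 8 in cluster 2 (beside 5.78% and 13.3% of all genes), 0 and 1 of 8 in cluster 4 (5.58% and 13.1%), and 1 and 2 of 8 in cluster 5 (9.5% and 13%).

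Of 12 listed genes of proximal receptor signalling, 0 were called higher and 2 lower of 12 measured in cluster 0, beside 6.88% and 19.7% of all genes, with a median log2 ratio of -0.10. These were *Gab1*, a docking protein, at 0.274 (0.179 to 0.406), and *Pik3r1*, a regulatory subunit of phosphoinositide 3-kinase, at 0.604 (0.576 to 0.633). *Gab1* stood at only 1.54 CPM there in control, and the part of free RNA in its ratio was not tested. *Plcg1*, a phospholipase that binds activated receptors, was the 1 lower of 10 in cluster 2 (0.647, 0.533 to 0.782), where 13.3% of all genes were called lower, and 0 of 11 and 0 of 10 were called either way in clusters 4 and 5.

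The 10 listed genes that attenuate receptor signalling went both ways. In cluster 0, 3 were called higher and 3 lower of 10 measured, beside 6.88% and 19.7% of all genes, with a median log2 ratio of 0.01. *Ptpn1*, a phosphatase that acts on receptor tyrosine kinases, was higher in cluster 0 (2.49, 2.37 to 2.61), cluster 2 (2.37, 2.03 to 2.78), cluster 4 (2.05, 1.77 to 2.39), cluster 5 (2.23, 1.79 to 2.79) and cluster 6 (4.86, 3.99 to 5.94). *Spry1*, a feedback inhibitor of receptor kinase signalling, was lower in cluster 0 (0.452, 0.415 to 0.491) and cluster 2 (0.542, 0.475 to 0.619) and higher in cluster 4 (1.66, 1.51 to 1.82). *Spry4*, of the same family, was higher in cluster 0 (1.80, 1.43 to 2.27) and cluster 4 (1.71, 1.27 to 2.33). *Ptprj*, a receptor phosphatase, was higher in cluster 0 (1.80, 1.52 to 2.13) and at 0.637 (0.349 to 1.13) in cluster 2. *Cblb*, a ubiquitin ligase, was at 0.659 (0.610 to 0.711) and *Socs3*, a cytokine feedback gene, at 0.579 (0.345 to 0.948) in cluster 0. *Socs3*, *Spry4* and *Ptprj* stood at only 0.586, 1.40 and 2.65 CPM in cluster 0 in control. The part of free RNA in their ratios was not tested. In cluster 2, 2 were higher and 3 lower of 8, beside 5.78% and 13.3% of all genes, and there *Ptpn2*, another phosphatase, was at 1.68 (1.35 to 2.09) and *Errfi1*, a feedback inhibitor of the epidermal growth factor receptor, at 0.655 (0.606 to 0.708). In cluster 4, 3 were higher and 0 lower of 7, beside 5.58% and 13.1%, and in cluster 5, 1 was higher and 0 lower of 5, beside 9.5% and 13%.

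None of the other receptors of the same kinase class was called higher in a cluster where it had at least 50 UMIs. *Kit*, the stem cell factor receptor and the RefSeq neighbour of *Pdgfra*, was at 51.2 and 52.4 CPM in cluster 4 (1.02, 0.906 to 1.15) and at a ratio of 0.586 (0.479 to 0.714) in cluster 0. Its control level in cluster 0 was only 3.47 CPM, so the ratio there is not read as a change of fibroblasts. *Csf1r*, the receptor for macrophage colony-stimulating factor, was at 237 CPM in control and 32.2 CPM with LPS in macrophages (0.136, 0.107 to 0.171), and *Flt3* had no UMI in any cluster.

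Over the 22 sums of cluster and library, the gene with the log2 profile most like *Pdgfra* was *Pappa1* (Pearson r = 0.884), followed by *Fibin*, *Lnx1*, *Tnfrsf11b* and *Pla2g2a* (r = 0.839). *Pdgfrb* was most like *Plac9* (r = 0.924), *Nfatc4*, *Col12a1*, *Snai1* and *Cygb*. *Pdgfb* was most like *Kif5b* (r = 0.933), *LOC684871*, *Fkbp1a*, *Mbnl2* and *Slc7a6os*. *Pdgfa* was most like *LOC103694082* (r = 0.870), *Wasl*, *Tax1bp3*, *Hist2h4a* and *Paip2*. For *Pdgfc* they were *Ppp3cb* (r = 0.869), *Tigd5*, *Nanos3* and *Crls1*, and for *Pdgfd* *Polh* (r = 0.897), *Zscan2*, *Zbtb39*, *Yeats2* and *Ppp1r9b*, several of them on few UMIs. The sums share libraries and depth, and small clusters weigh as much as large ones, so these values only describe likeness. *Pdgfra* and *Pdgfrb* themselves gave r = 0.07 over these sums, and *Pdgfa* and *Pdgfra* r = -0.61.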

How the data were processed

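Single-cell RNA sequencing of Percoll-enriched neonatal rat heart cells gave 1 control and 1 LPS library. The deposited values are raw UMI counts per gene and cell, whole numbers with no normalization, made by the authors with Cell Ranger 2.2.0 and Seurat 2.3.4 according to their processing notes, and the genome build is not given in the sources used here. The clusters are those of the authors' cell table, and 2 control and 8 LPS cells without one were left out of the clusters. UMIs were summed per cluster and library and scaled to 1000000 UMIs of the cluster (CPM) with numpy 2.4.6, pandas 2.3.3 and scipy 1.17.1 under Python 3.11.15. Figures used matplotlib 3.10.9. Intervals at 95% are exact Poisson (levels), exact conditional (ratios) and Clopper-Pearson (shares), and where no UMI was counted, 3 UMIs were taken as the limit. For the change in the ratio of *Pdgfra* to *Pdgfrb* the interval is a normal approximation on the log scale. A gene was measured in a cluster with at least 50 UMIs over both libraries and called at 1.5-fold, and log2 ratios add 0.5 UMI to each sum. Thinning drew 3000 UMIs per cell without replacement and left out 79 LPS cells and no control cell. No doublet caller was run here, and the cells with the most UMIs were left out as an alternative. Control cells held 3682 to 70604 UMIs and LPS cells 2821 to 46594. No test was made, as cells are not replicates.

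Named genes are the 6 members, the genes of the pathway lists past 1.5-fold in cluster 0, 2 or 4 (with the same genes in clusters 5 and 6), and the 5 genes per member with the highest Pearson correlation of log2(CPM + 1) over 22 sums, among genes with at least 200 UMIs (1 of these genes is not reported here). *Pcsk5* and the neighbouring genes were named after their values were seen. The members and lists were chosen with earlier results of these data known. The lists were PDGF processing and binding, proximal receptor signalling, attenuation, and class III receptor kinases. *Pecam1*, *Ttn* and *Cd79a* of the marker lists were not analysed here. Promoter sequences and gene order are from RefSeq (GRCr8). Alternatives were filters on cells, other scalings, the mean of the cells' own CPM, other depths of thinning and other minimums. The procedure was tested on simulated data.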

Additional observations from a re-analysis of the deposited data

Results flagged for a closer look

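*Pdgfa* had ratios on either side of 1 by cluster. Its log2 ratio of LPS to control was 1.36 in the endothelial cluster 4 and 1.55 in the endothelial cluster 5, and it was -0.33 in cluster 0, -0.45 in cluster 1, -0.29 in cluster 2 and -0.72 in cluster 8. In each of these clusters the counting interval of the ratio left out 1. Of the values below 0 only that of cluster 8 was past 1.5-fold, and in clusters 0, 1 and 2, 33.0%, 18.3% and 31.2% of all measured genes had a lower log2 ratio. In control, *Pdgfa* in clusters 0 and 1 was at 14.3% and 14.7% of its cluster 5 level. The endothelial markers lay lower there, at 2.66% to 8.92% and 2.67% to 8.14%. With LPS *Pdgfa* was at 3.90% and 3.70%, within the markers' 2.71% to 11.5% and 2.89% to 10.6%. The cluster 5 level was itself 2.92 times higher with LPS, so these percents cannot show whether *Pdgfa* changed in clusters 0 and 1. The clusters share the same pair of libraries, and with 1 library per condition the difference between clusters was not tested.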

How the results depend on the processing

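No paired analysis was possible because there was a single library for saline and a single one for LPS, and for the same reason no replicate could be left out. Of 266 values of 38 log2 ratios under 7 alternatives, 255 stayed within the counting error of the reported value, 11 moved beyond it, 260 kept their sign and 6 did not. None of the ratios whose interval left out 1 changed sign. Scaling to the median gene of the cluster gave log2 ratios of 1.26 for *Pdgfra* in cluster 0, and -0.49 and -0.35 for *Pdgfrb* in clusters 0 and 2, and -0.58 for *Pdgfrb* in cluster 6, so that *Pdgfrb* was no longer past 1.5-fold in clusters 0 and 6. Without the deepest 8% of cells, log2 ratios were 0.63 for *Pdgfra* in cluster 2 and -0.25 for *Pdgfa* in cluster 6, where the reported value is 0.52 with an interval that includes no change. The causes were not tested. The mean of the cells' own CPM was 43.2 for *Pdgfra* in cluster 2 with LPS, 542 and 387 for *Pdgfrb* in cluster 2 in control and LPS, 128 and 349 for *Pdgfa* in cluster 5, and 92.8 for *Pdgfa* in cluster 2 in control. Shares follow depth by construction. At 1500 UMIs per cell they were, in control and LPS, 13.9% and 29.6% for *Pdgfra* in cluster 0, 24.8% and 17.0% for *Pdgfrb* in cluster 0, 51.9% and 41.5% for *Pdgfrb* in cluster 2, and 15.4% and 37.2% for *Pdgfa* in cluster 5. Without thinning they were 68.9% and 84.6%, 86.3% and 65.1%, 94.0% and 82.1%, and 61.7% and 85.6%, and cells with both receptors made up 60.2% and 56.3% of cluster 0 and 16.9% and 17.8% of cluster 2. For the processing and binding, signalling and attenuation lists, a fold of 2 left 1 higher and 2 lower in cluster 0. *Csf1r*, of the class III receptor kinases, was also past 2-fold lower there. In cluster 2 the fold of 2 left 1 higher and 1 lower, and in cluster 4 it left 1 higher, with *Thbs1* lower. With at least 200 UMIs 3 were lower in cluster 2 and 0 in cluster 4, and with at least 10 UMIs 2 were lower in cluster 4. A minimum on UMIs changes how many genes are measured. Depth limits *Pdgfc*, *Pdgfd* and clusters 9 and 10.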

Other observations

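The genes next to the members were read in RefSeq order, 4 named protein-coding genes on either side, after the correlation with *Lnx1* had been seen. On 1 side of *Pdgfra*, *Chic2*, *Lnx1* and *Fip1l1* were all higher with LPS in cluster 0. *Chic2* went from 6031 to 10231 UMIs (ratio of levels 2.08, 2.02 to 2.15), *Lnx1*, a ubiquitin ligase, from 617 to 1190 (2.37, 2.15 to 2.61), and *Fip1l1*, a factor of messenger RNA polyadenylation, from 2952 to 5560 (2.31, 2.21 to 2.42). *Gsx2*, between *Pdgfra* and *Chic2*, had no UMI there. On the other side, *Kit* had a ratio of 0.586 (0.479 to 0.714), *Kdr* 0.805 (0.679 to 0.953), *Srd5a3* 1.197 (1.09 to 1.31) and *Tmem165* 1.22 (1.16 to 1.28). So 3 of 7 measured neighbours were called higher and 1 lower in cluster 0, where 6.88% and 19.7% of all genes were. *Pdgfra* itself had a ratio of 2.19 there. The 1 called lower, *Kit*, stood at 3.47 CPM in cluster 0 of the control library, beside 51.2 CPM in the endothelial cluster 4. *Kdr* stood at 3.89 CPM, beside 83.8 CPM. The cluster 0 ratios of *Kit* and *Kdr* are not read as changes of fibroblasts. In cluster 2 the ratios of *Chic2*, *Lnx1* and *Fip1l1* were 1.81 (1.61 to 2.04), 2.16 (1.17 to 4.14) and 1.76 (1.51 to 2.06). In cluster 4 they were 1.78 (1.69 to 1.88), 2.15 (1.16 to 4.13) on 17 and 32 UMIs, and 1.39 (1.22 to 1.59).

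Of the neighbours of *Pdgfrb*, 4 of 4 measured were called lower in cluster 0, where 19.7% of all genes were. They were *Slc6a7*, a proline transporter, from 1153 to 185 UMIs (0.197, 0.168 to 0.230), *Csf1r* (0.149, 0.0931 to 0.228), *Hmgxb3* (0.370, 0.209 to 0.626) and *Slc26a2* (0.548, 0.421 to 0.708). *Csf1r* stood at 2.19 CPM in cluster 0 and between 1.71 and 2.26 CPM in clusters 1 to 5 of the control library, beside 237 CPM in macrophages, where its ratio was 0.136, so its cluster 0 ratio is not read as a change of fibroblasts. *Hmgxb3* and *Slc26a2* stood at only 0.696 and 2.18 CPM in cluster 0 of the control library. *Slc26a2* was at 3.21 CPM in macrophages there, on 10 UMIs. The part of free RNA in the cluster 0 ratios of *Hmgxb3* and *Slc26a2* was not tested. In cluster 2 *Slc6a7* went from 50 to 7 UMIs (0.156, 0.0597 to 0.346). Its control level was 5.34 CPM there, beside 5.46 CPM in macrophages and 12.7 CPM in cluster 0. The cluster 2 ratio is therefore not read as a change of those cells. Around *Pdgfa*, 0 of 5 measured neighbours were called higher and 0 lower in cluster 4, where 5.58% and 13.1% of all genes were. In cluster 5, 0 were higher and 2 lower of 5 (*Sun1* at 0.658 and *Fam20c* at 0.642), beside 9.5% and 13% of all genes. Around *Pdgfb* in cluster 4, 0 were higher and 4 lower of 7, beside the same 5.58% and 13.1% of all genes. Around *Pdgfc* in cluster 0, 0 were higher and 2 lower of 2. Over all genes of cluster 0, 6.88% were called higher and 19.7% lower. Of the 6 measured neighbours of *Pdgfd* in cluster 0, *Mmp13*, a collagenase, went from 3 to 164 UMIs (67.1, 22.6 to 329) and *Casp4*, an inflammatory caspase, was at 1.58 (1.41 to 1.78), the 2 called higher and none lower, while *Pdgfd* lay at 0.483. How these genes share reads, and whether the neighbours change together, was not tested.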
